A study of Mus musculus with 12 samples.

Results

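The poly(ADP-ribose) polymerase (PARP) family was followed through 10 of its genes in cultures of RAW264.7, a virus-transformed mouse macrophage line, that received added salt, with lipopolysaccharide (LPS), or with both. The genes were taken by symbol from the array's annotation: Parp1, Parp2, Parp3, Parp4, Parp8, Parp9, Parp10, Parp11, Parp12 and Parp14. They are 10 of the 16 family genes considered below and are read by 13 of the 33256 probes that carry a symbol. Of the 10 members, 9 were among the 13860 genes that were bright enough to test, and Parp8 was not. The 4 groups hold 3 arrays each and were all cultured for 24 h. HS+LPS cells received 40 mM added NaCl and 10 ng/ml LPS, NS+LPS cells received 10 ng/ml LPS without added NaCl, HS cells received 40 mM added NaCl alone, and NS cells received neither. The labels do not spell out HS and NS, which are read here as high salt and as the matching culture without added salt. Nothing in the labels ties the 3 replicates of a group to separate cultures, so each p-value below reflects how far these samples scatter, and that scatter may be technical.

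PARP enzymes move ADP-ribose from NAD+ onto proteins and nucleic acids. Parp1 and Parp2 build long ADP-ribose chains at broken DNA, which draw in repair proteins, whereas most other members attach single units or have lost the catalytic activity. A group of them, Parp9, Parp10, Parp11, Parp12 and Parp14, is known as interferon-inducible in macrophages and other cells, and LPS makes macrophages release type I interferon through the receptor TLR4.

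RNA was labelled with a single dye, and a level here is the log2 of a probe's processed signal relative to the 75th percentile of its array, so that 0 is the brightness of that percentile. That percentile was 411 to 438 signal units on the HS+LPS arrays and 614 to 783 on the other 9. Between 44.6 and 53.3% of spots were well above background, and none was saturated. One slide carried 8 arrays, those of NS, of HS and the first pair of NS+LPS replicates. The third NS+LPS array was on a second slide with the same scan day. The HS+LPS arrays had a slide to themselves and a later scan day, so in every comparison with HS+LPS the treatment and the slide or scan day cannot be told apart. All 7 macrophage markers, among them Csf1r and Cd68, were well above background on all 12 arrays, as were the T cell genes Cd3e and Cd4 (2 of 5), the B cell gene Cd79b (1 of 4) and the endothelial genes Pecam1 and Kdr (2 of 3). No fibroblast marker (0 of 4) reached that on all arrays and no epithelial marker (0 of 4) on any array. In RNA from whole cultures, a lower level in each cell and fewer cells with the RNA cannot be told apart.

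The first question was how the family responded to LPS. All 9 measured members changed with LPS, both without and with added salt. Without added salt, 7 members rose and 2 fell in NS+LPS against NS, beside 28.6% of all genes called higher and 35.1% called lower, 63.7% in all (limma, adjusted p under 0.05). With added salt, 7 rose and 2 fell in HS+LPS against HS, beside 30.5% higher and 41.8% lower over all genes, 72.3% in all. The median log2 difference of the 9 members was 2.09 without added salt, against -0.03 for all genes, and 2.16 with added salt, against -0.11 for all genes. The same 7 members rose in both comparisons, namely Parp14, Parp11, Parp12, Parp9, Parp10, Parp3 and Parp4, and Parp1 and Parp2 fell in both. The groups did not overlap for any of the 9 members in either comparison, beside 69.6% of all genes without and 74.9% with added salt.

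**Figure D1:**
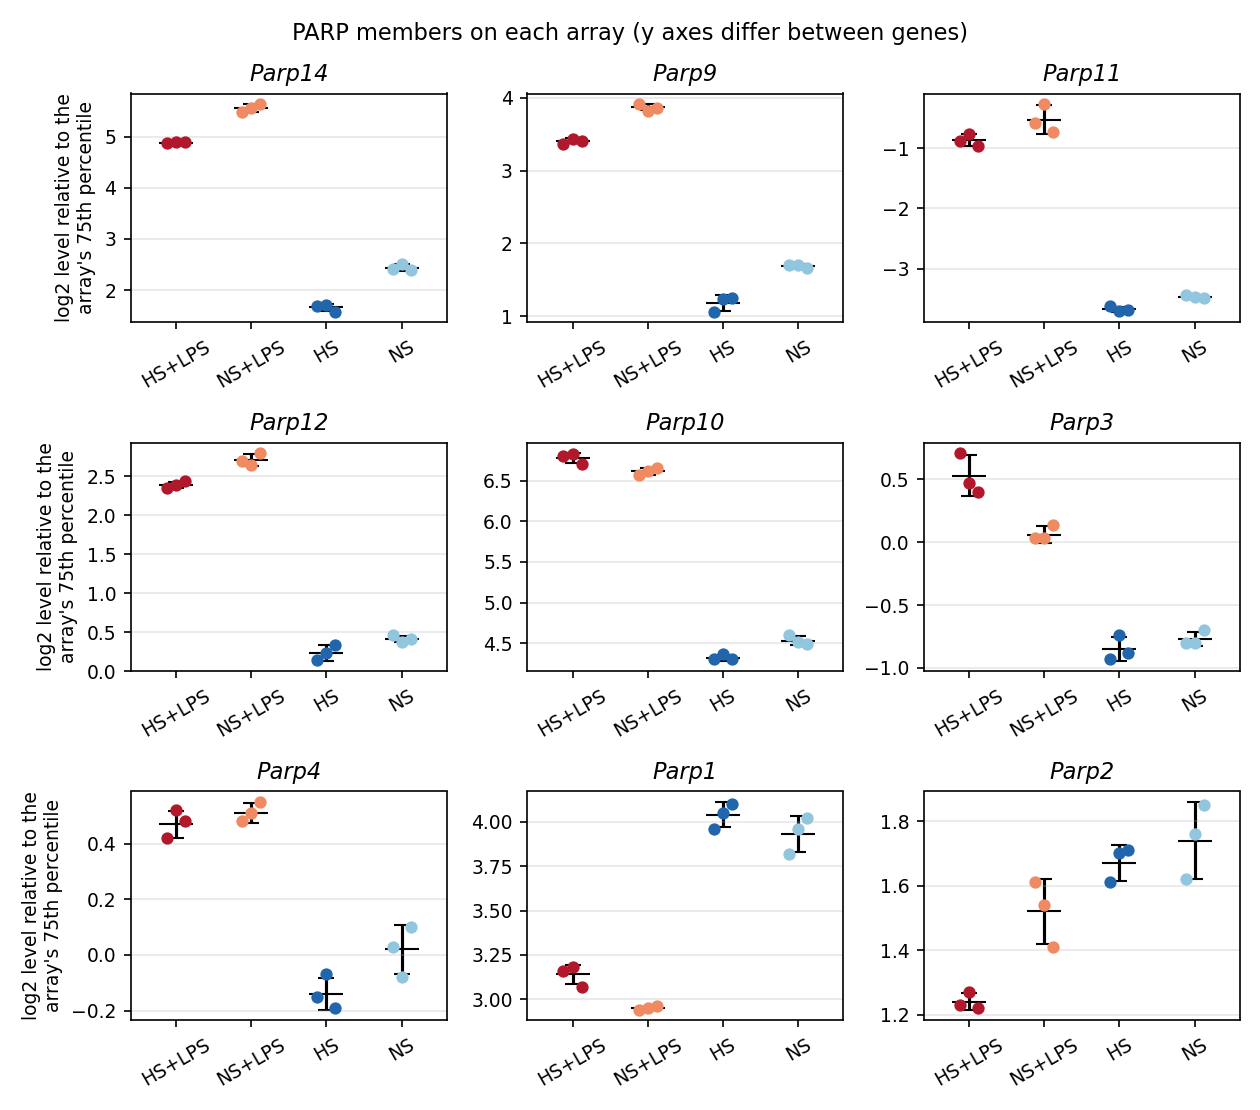
Log2 level of each measured member relative to its array's 75th percentile, on all 12 arrays. Points are arrays, long lines are group means and bars are SD (n = 3 arrays per group), and the y axes differ between genes. Parp14 sat between 4.88 and 5.64 on the LPS arrays and between 1.57 and 2.50 on the others, while Parp1 sat between 2.94 and 3.18 on the LPS arrays and between 3.82 and 4.10 on the others.

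Parp14, a large macrodomain protein that attaches single ADP-ribose units and acts as a cofactor of STAT6 in interleukin-4 signalling, moved most. Its level was 5.49, 5.56 and 5.64 on the NS+LPS arrays, against 2.42, 2.50 and 2.39 on the NS arrays. With added salt it was 4.88, 4.89 and 4.89 on the HS+LPS arrays, against 1.68, 1.71 and 1.57 on the HS arrays. Every LPS array thus lay far above every array without LPS, and within each pair of groups the salt arrays lay below those without salt. The difference was 8.73-fold in NS+LPS against NS (log2 3.13, SE 0.052, adjusted p = 1.00e-11) and 9.36-fold in HS+LPS against HS (log2 3.23, SE 0.052, adjusted p = 7.97e-12). Only 1.62% of all genes without added salt and 1.36% with it differed by more. The Parp14 probe lies on the minus strand at chr16:35832992-35833051 (mm9).

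Parp9, a macrodomain protein that works as a pair with the ubiquitin ligase Dtx3l, had levels of 3.91, 3.82 and 3.86 on the NS+LPS arrays, against 1.71, 1.70 and 1.66 on the NS arrays. Under added salt its levels were 3.37, 3.44 and 3.41 on the HS+LPS arrays, against 1.06, 1.24 and 1.25 on the HS arrays. Here too the LPS arrays were all above the rest and did not overlap with them. Parp9 rose 4.51-fold in NS+LPS (log2 2.17, SE 0.053, adjusted p = 1.83e-10) and 4.66-fold in HS+LPS (log2 2.22, SE 0.053, adjusted p = 1.52e-10). Its second probe, a dimmer one at chr16:35968243-35968302, gave 1.68 (SE 0.15) in NS+LPS against NS and 1.64 (SE 0.15) in HS+LPS against HS in a fit of all 18846 probes with a symbol that passed the filter.

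Parp11, a mono-ADP-ribosyltransferase found at the nuclear envelope, also rose with LPS. Its level was -0.58, -0.27 and -0.73 on the NS+LPS arrays, against -3.43, -3.46 and -3.49 on the NS arrays. It was -0.89, -0.77 and -0.96 on the HS+LPS arrays, against -3.62, -3.70 and -3.69 on the HS arrays. The probe was well above background on all 12 arrays, and the LPS arrays were again separate from the others. The rise was 7.64-fold in NS+LPS (log2 2.93, SE 0.10, adjusted p = 2.04e-09) and 6.94-fold in HS+LPS (log2 2.80, SE 0.10, adjusted p = 2.90e-09). Its size depended on the background correction, since normexp correction gave log2 differences of 2.06 without and 1.83 with added salt.

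Parp12, a zinc-finger member that attaches single ADP-ribose units and restrains the replication of RNA viruses, had levels of 2.69, 2.65 and 2.80 on the NS+LPS arrays, against 0.46, 0.37 and 0.41 on the NS arrays. Its levels on the HS+LPS arrays were 2.35, 2.39 and 2.44, against 0.14, 0.23 and 0.34 on the HS arrays. All 6 LPS arrays lay above all 6 others. Parp12 rose 4.93-fold in NS+LPS (log2 2.30, SE 0.058, adjusted p = 2.28e-10) and 4.46-fold in HS+LPS (log2 2.16, SE 0.058, adjusted p = 3.68e-10).

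Parp10, a mono-ADP-ribosyltransferase first described as a partner of the transcription factor Myc, had levels of 6.57, 6.62 and 6.66 on the NS+LPS arrays, against 4.60, 4.51 and 4.49 on the NS arrays. On the HS+LPS arrays it had 6.81, 6.83 and 6.71, against 4.30, 4.37 and 4.30 on the HS arrays. Unlike Parp14, Parp9, Parp11 and Parp12, it was highest on the arrays with both salt and LPS. It rose 4.24-fold in NS+LPS (log2 2.09, SE 0.048, adjusted p = 1.07e-10) and 5.51-fold in HS+LPS (log2 2.46, SE 0.048, adjusted p = 2.95e-11). The other Parp10 probe shares 20 bases with the brighter one (chr15:76063393-76063452 and chr15:76063433-76063492, minus strand, mm9) and gave 2.34 (SE 0.20) and 2.41 (SE 0.20) in the same comparisons. That probe was well above background on 2 of the 3 HS arrays and on all others.

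Outside this group the rises were smaller. Parp3, which acts in the repair of double-strand breaks, had levels of 0.03, 0.03 and 0.14 on the NS+LPS arrays, against -0.80, -0.80 and -0.70 on the NS arrays. Its levels were 0.71, 0.47 and 0.40 on the HS+LPS arrays, against -0.93, -0.74 and -0.88 on the HS arrays. The HS+LPS arrays stood above the NS+LPS arrays, and both above the rest. Parp3 rose 1.78-fold in NS+LPS (log2 0.83, SE 0.080, adjusted p = 5.93e-06) and 2.60-fold in HS+LPS (log2 1.38, SE 0.080, adjusted p = 1.08e-07).

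Parp4, the enzyme carried by vault particles, had levels of 0.48, 0.51 and 0.55 on the NS+LPS arrays, against 0.03, -0.08 and 0.10 on the NS arrays. It had 0.42, 0.52 and 0.48 on the HS+LPS arrays, against -0.15, -0.07 and -0.19 on the HS arrays. The 2 LPS groups overlapped each other and lay above both groups without LPS. It rose 1.41-fold in NS+LPS (log2 0.50, SE 0.053, adjusted p = 1.33e-05) and 1.52-fold in HS+LPS (log2 0.61, SE 0.053, adjusted p = 2.31e-06). A second Parp4 probe, which crosses a splice junction, gave 0.51 (SE 0.054) and 0.73 (SE 0.054).

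Parp1 and Parp2, which sense DNA breaks, fell. Parp1, the most abundant nuclear ADP-ribose polymerase of most cells, had levels of 2.94, 2.95 and 2.96 on the NS+LPS arrays, against 3.82, 3.96 and 4.02 on the NS arrays. It had 3.16, 3.18 and 3.07 on the HS+LPS arrays, against 3.96, 4.05 and 4.10 on the HS arrays. All LPS arrays were below all arrays without LPS. Parp1 fell 1.98-fold in NS+LPS (log2 -0.98, SE 0.058, adjusted p = 1.23e-07) and 1.87-fold in HS+LPS (log2 -0.90, SE 0.058, adjusted p = 2.13e-07).

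Parp2, its close relative in single-strand break repair, had levels of 1.61, 1.54 and 1.41 on the NS+LPS arrays, against 1.62, 1.76 and 1.85 on the NS arrays. Its levels were 1.23, 1.27 and 1.22 on the HS+LPS arrays, against 1.61, 1.70 and 1.71 on the HS arrays. The highest NS+LPS array, at 1.61, lay just below the lowest NS array, at 1.62, while the HS+LPS arrays stood well below the HS arrays. Parp2 fell by 0.22 in NS+LPS (SE 0.067, adjusted p = 0.0148) and by 0.43 in HS+LPS (SE 0.067, adjusted p = 0.000207). Within the shared slide the NS+LPS difference was -0.17 (adjusted p = 0.0965), so this call was not made there, nor without NS+LPS replicate 3 (adjusted p = 0.0601) or NS replicate 3 (adjusted p = 0.0603). The other 8 members kept their calls within the shared slide.

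The probes that read the falling pair and the second Parp4 probe each span more of the genome than their 60 bases, so each crosses a splice junction and reads spliced RNA rather than genomic DNA. They are shown as deposited, 5′ to 3′, with no capitals.
Parp1, chr1:182530341-182530639, mm9, plus strand: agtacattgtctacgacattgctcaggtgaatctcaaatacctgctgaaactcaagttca
Parp2, chr14:51439134-51439365, mm9, plus strand: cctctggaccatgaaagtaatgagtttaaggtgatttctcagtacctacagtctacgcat
Parp4, chr14:57256794-57260137, mm9, plus strand: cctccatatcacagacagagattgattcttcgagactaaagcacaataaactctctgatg

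Parp8, a mono-ADP-ribosyltransferase with few known roles, was not well above background on any of the 12 arrays. Its probe at chr13:117643922-117643981 (minus strand, mm9) read between -6.73 and -4.60, and no difference was computed for it.

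Because 5 of the members are known interferon targets, the promoters of the family were searched for the core of the interferon-stimulated response element, GAAANNGAAA or TTTCNNTTTC on the other strand, which STAT and IRF factors bind. RefSeq promoters (GRCm38.p6, 250 bases before to 50 after a start site) were at hand for 7 of the 10 members, and Parp9, Parp10 and Parp14 were not among them. The core was present in 2 of these 7, Parp4 and Parp11, and in 0 of 5 other family genes, beside 1131 of 32851 promoters in the table (3.44%). The family is counted here by gene and the table by promoter. Of the 2 promoters listed for Parp11, only 1 holds a match. Parp4 holds 2 matches that overlap, starting 150 and 144 bases before the start site, and Parp11 holds 1 that starts 44 bases before the first of its 2 listed start sites. The Parp11 promoter also holds the core of a gamma-activated site, TTCNNNGAA, which starts 37 bases before the start site and shares 3 bases with the other match. That core occurs in 2726 of the 32851 promoters (8.30%) and in no other member's. The upstream 250 bases of the 2 promoters with a match are shown with the response element core in capitals, and that of Parp12, which rose 4.93-fold with LPS and has no match in this window, is shown for contrast.
Parp11, chr6:127446590-127446839, GRCm38.p6, plus strand: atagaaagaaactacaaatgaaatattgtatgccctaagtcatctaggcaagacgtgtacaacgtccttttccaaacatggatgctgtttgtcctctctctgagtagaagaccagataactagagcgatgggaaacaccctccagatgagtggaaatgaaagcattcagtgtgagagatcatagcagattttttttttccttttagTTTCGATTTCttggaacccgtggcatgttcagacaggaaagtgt
Parp4, chr14:56575369-56575618, GRCm38.p6, plus strand: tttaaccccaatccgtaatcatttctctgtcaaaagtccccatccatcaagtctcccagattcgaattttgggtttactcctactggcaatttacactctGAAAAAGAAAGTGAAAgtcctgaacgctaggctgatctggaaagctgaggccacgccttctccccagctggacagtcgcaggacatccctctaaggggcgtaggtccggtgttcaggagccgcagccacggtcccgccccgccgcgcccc
Parp12, chr6:39118350-39118599, GRCm38.p6, minus strand: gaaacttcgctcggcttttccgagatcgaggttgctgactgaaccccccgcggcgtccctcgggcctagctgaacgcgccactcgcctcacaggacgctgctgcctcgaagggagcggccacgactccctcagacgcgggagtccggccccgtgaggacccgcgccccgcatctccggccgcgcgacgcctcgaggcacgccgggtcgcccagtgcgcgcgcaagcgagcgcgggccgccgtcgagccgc
A match describes letters in this window and does not show that a factor binds there. Parp11, with 1 match, rose 7.64-fold in NS+LPS against NS, and Parp4, with 2, rose 1.41-fold.

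The second question was what added salt did to the family in resting cells. In HS against NS, 5 of the 9 measured members fell and none rose, beside 18.8% of all genes called lower and 18.2% called higher, 37% in all. Their median log2 difference was -0.18, against 0.02 for all genes. Parp14 fell 1.72-fold (log2 -0.78, SE 0.052, adjusted p = 4.68e-06), to a mean level of 1.66 in HS, against 2.44 in NS. Parp9 fell 1.42-fold (log2 -0.51, SE 0.053, adjusted p = 6.50e-05), to a mean of 1.19 in HS, against 1.69 in NS. For both genes every HS array lay below every NS array, and 4.69% of all genes differed by more than Parp14 did.

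Smaller falls were called for Parp10 (log2 -0.21, SE 0.048, adjusted p = 0.00596), Parp12 (-0.18, SE 0.058, adjusted p = 0.0363) and Parp4 (-0.15, SE 0.053, adjusted p = 0.0448). The HS and NS arrays did not overlap for Parp10 and Parp12, but they did for Parp4. Over 24 other settings the Parp4 call was lost in 15 (adjusted p up to 0.15) and the Parp12 call in 9 (adjusted p up to 0.121), and within the shared slide neither was made (adjusted p = 0.0784 for Parp4 and 0.0535 for Parp12). Slide as a fixed block and the shared slide alone gave the same fit and are both counted among these settings. The Parp10 call was lost when its 2 probes were averaged (-0.15, adjusted p = 0.288).

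The remaining members did not pass the test in resting cells. Parp11 differed by -0.21 (SE 0.10, adjusted p = 0.132) although its HS arrays all lay below its NS arrays, as they did for 5 of 9 members, beside 50.4% of all genes whose groups did not overlap. Its value depended on the processing, from -0.33 in the deposited values (adjusted p = 0.034) and -0.32 with quantile normalization (adjusted p = 0.036), where it was called, to -0.006 with normexp correction (adjusted p = 0.963). Parp1 differed by 0.10 (SE 0.058, adjusted p = 0.193), Parp2 by -0.07 (SE 0.067, adjusted p = 0.448) and Parp3 by -0.08 (SE 0.080, adjusted p = 0.47), each with overlapping arrays.

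The third question was what added salt did in LPS-activated cells. In HS+LPS against NS+LPS, 3 of the 9 members rose and 5 fell, beside 26.2% of all genes called higher and 31.4% lower, 57.5% in all. The members' median log2 difference was -0.28, against -0.04 for all genes. Parp14 and Parp9 fell here as well, Parp14 1.60-fold (log2 -0.68, SE 0.052, adjusted p = 3.62e-06) and Parp9 1.37-fold (-0.46, SE 0.053, adjusted p = 5.81e-05). Parp14 averaged 4.88 in HS+LPS and 5.56 in NS+LPS, and Parp9 averaged 3.41 in HS+LPS and 3.87 in NS+LPS. Even so, both stood far above their level in cells without LPS, as the plot of levels by array shows.

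Parp11 fell by 0.35 (SE 0.10, adjusted p = 0.0135), Parp12 by 0.32 (SE 0.058, adjusted p = 0.00103) and Parp2 by 0.28 (SE 0.067, adjusted p = 0.00555). Parp3 rose 1.38-fold (log2 0.46, SE 0.080, adjusted p = 0.000747). Parp1 rose by 0.18 (SE 0.058, adjusted p = 0.0195) and Parp10 by 0.16 (SE 0.048, adjusted p = 0.0142). For these 6 genes, and for Parp14 and Parp9, the HS+LPS and NS+LPS arrays did not overlap, beside 64.2% of all genes. Parp4 differed by -0.04 (SE 0.053, adjusted p = 0.529) and its arrays overlapped.

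Some of these calls were lost under other settings. The Parp11 call was lost when only the HS+LPS and NS+LPS arrays were fitted (adjusted p = 0.062). The Parp1 call was lost without NS+LPS replicate 1 (adjusted p = 0.0507), HS+LPS replicate 1 (0.0565) or HS+LPS replicate 2 (0.0617). It was also lost with no filter on dim probes (adjusted p = 0.0527). The Parp10 call was lost without NS+LPS replicate 1 (0.0524) and with its 2 probes averaged (log2 0.08, adjusted p = 0.558).

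**Figure D2:**
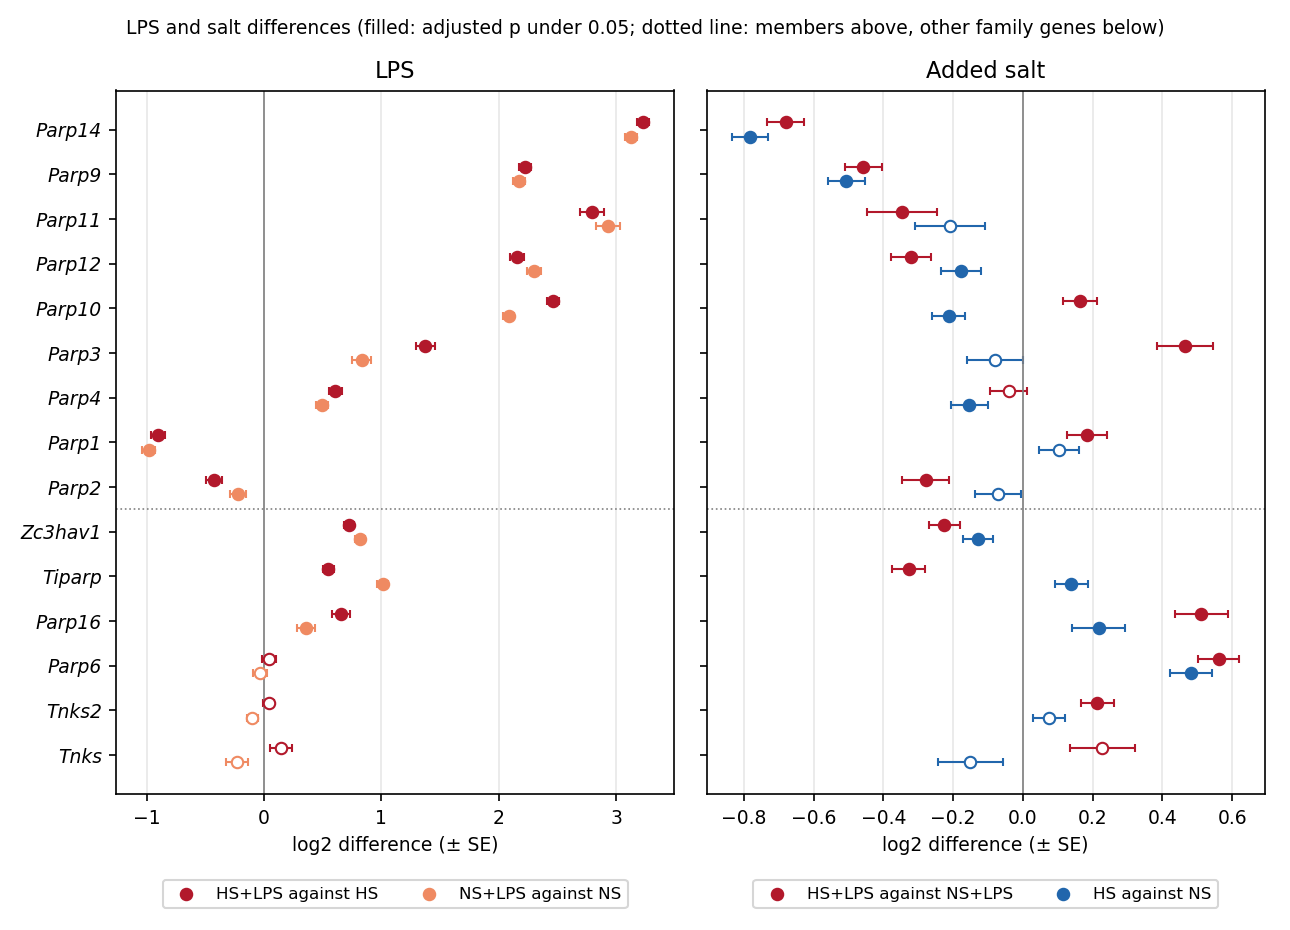
Log2 differences with SE for the 9 measured members (above the dotted line) and 6 other family genes (below it), for LPS on the left and added salt on the right, each with 3 arrays per group. Filled points have an adjusted p under 0.05. The LPS differences reach 3.23 for Parp14 in HS+LPS against HS, while the salt differences of the members lie between -0.78 and 0.46.

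Whether LPS changed the response to salt was tested as the interaction, the salt difference with LPS minus that without. It was positive for 2 of 9 members, Parp3 and Parp10, and negative for none, beside 17.4% of all genes called higher and 18.8% lower, 36.2% in all. The members' median was 0.08, against -0.03 for all genes. For Parp3 the salt difference was 0.46 with LPS and -0.08 without, which gave an interaction of 0.54 (SE 0.11, adjusted p = 0.00471). For Parp10 it was 0.16 with LPS and -0.21 without, an interaction of 0.38 (SE 0.068, adjusted p = 0.00218). The dimmer Parp10 probe gave an interaction of 0.07 (SE 0.28, adjusted p = 0.863), and the mean of the 2 probes 0.22 (adjusted p = 0.256). For Parp3 all 12 leave-one-out fits kept the call (0.46 to 0.61).

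**Figure D3:**
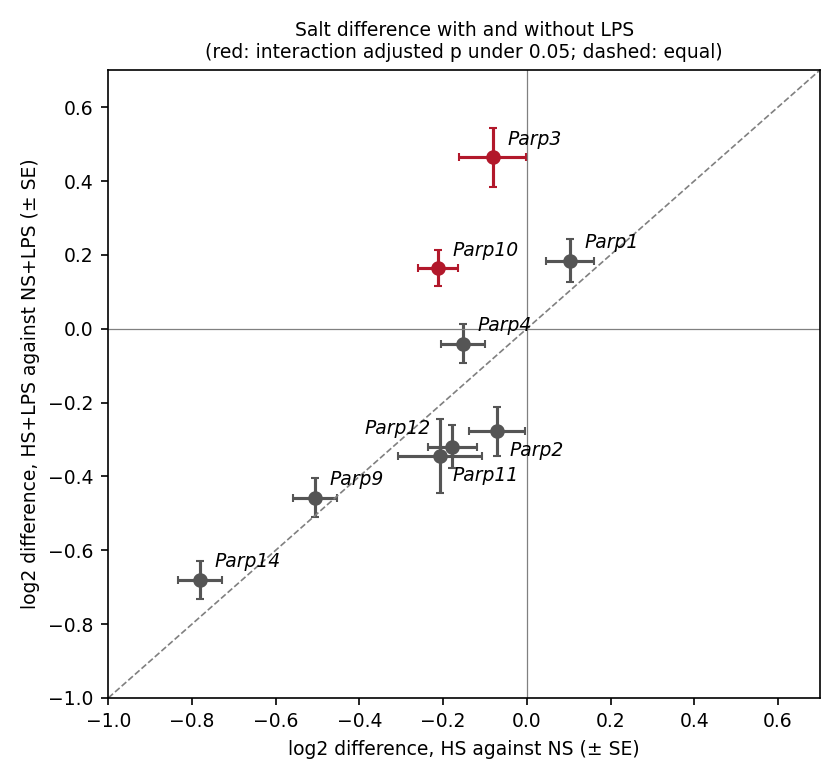
Salt difference without LPS (x axis, HS against NS) and with LPS (y axis, HS+LPS against NS+LPS) for the 9 measured members, in log2 units with SE (n = 3 arrays per group). On the dashed line both are equal, and red points have an interaction with adjusted p under 0.05. Parp3 and Parp10 lie above the line, and Parp14 and Parp9 lie near it at the lower left.

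For Parp14 the salt difference was -0.68 with LPS and -0.78 without, an interaction of 0.10 (SE 0.074, adjusted p = 0.312). For Parp9 it was -0.46 with LPS and -0.51 without, an interaction of 0.05 (SE 0.075, adjusted p = 0.639). Parp11 (-0.14, SE 0.14), Parp12 (-0.14, SE 0.082), Parp2 (-0.21, SE 0.095), Parp4 (0.11, SE 0.075) and Parp1 (0.08, SE 0.081) did not pass either (adjusted p from 0.116 to 0.471). A second Parp4 probe gave 0.22 (SE 0.076, adjusted p = 0.0492). Each interaction draws on the HS+LPS arrays, and their slide and scan day cannot be told apart from the treatment.

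Parp9, Parp10 and Parp4 were read by a pair of probes each, and the pairs moved the same way with LPS. With salt they differed more. The second Parp9 probe gave -0.20 (SE 0.15, adjusted p = 0.347) in HS against NS and -0.24 (SE 0.15, adjusted p = 0.205) in HS+LPS against NS+LPS, in the direction of the brighter probe but without a call. The second Parp4 probe fell in HS against NS (-0.28, SE 0.054, adjusted p = 0.00284). The second Parp10 probe gave -0.01 (SE 0.20) in HS+LPS against NS+LPS and -0.09 (SE 0.20) in HS against NS. The salt statements on Parp10 therefore rest on 1 probe.

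**Figure D4:**
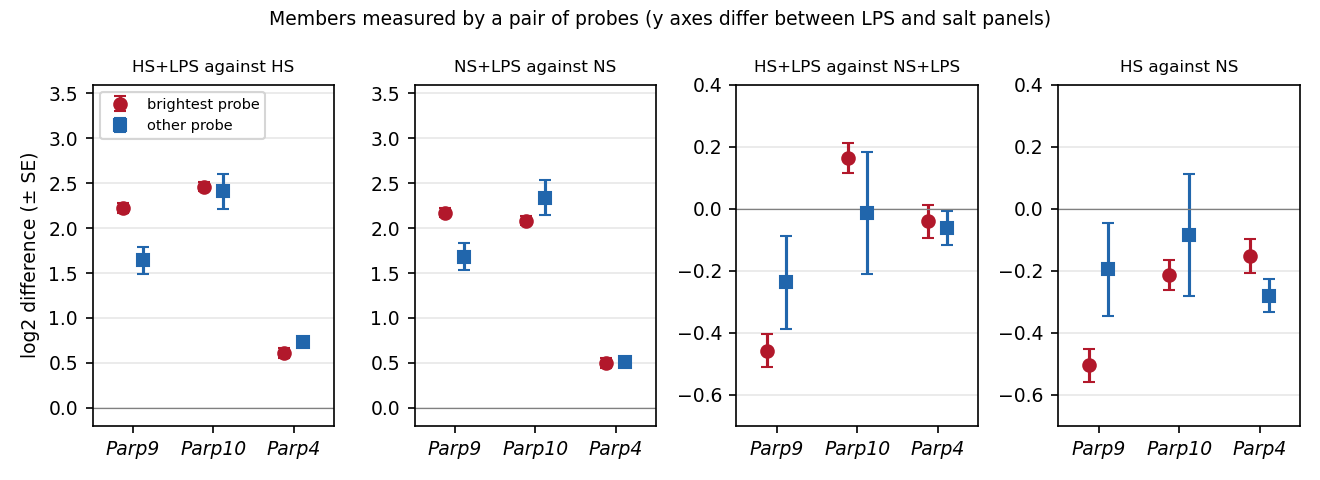
Log2 difference with SE by probe for Parp9, Parp10 and Parp4 in 4 comparisons (n = 3 arrays per group), with the brightest probe as circles and the other as squares. The LPS differences are all above 0, from 0.50 to 2.46, and the dimmer Parp10 probe has salt differences of -0.01 and -0.09 with wide errors.

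In order of level, Parp14, Parp9, Parp12, Parp11 and Parp4 ran from NS+LPS through HS+LPS and NS down to HS. For Parp4 the first 2 of these groups did not differ beyond their spread, and for Parp11 the last 2 did not pass the test. Parp10 and Parp3 instead ran from HS+LPS through NS+LPS and NS to HS, with NS and HS not distinguished for Parp3. Parp1 ran the opposite way, from HS and NS, which did not pass the test, through HS+LPS to NS+LPS. Parp2 ran from NS and HS, likewise not distinguished, through NS+LPS to HS+LPS. The group means of Parp14 spanned 3.91 log2 units and those of Parp2 0.50, the widest and narrowest of the 9.

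The 6 other family genes on the array were counted by their brightest probes. In NS+LPS against NS, 3 rose and none fell, beside 28.6% of all genes higher and 35.1% lower, with a median log2 difference of 0.16. The same counts held in HS+LPS against HS, beside 30.5% higher and 41.8% lower, with a median of 0.35. Tiparp, a mono-ADP-ribosyltransferase induced by the aryl hydrocarbon receptor, rose 2.02-fold in NS+LPS (log2 1.01, SE 0.047) and 1.46-fold in HS+LPS (0.55, SE 0.047). Zc3hav1, the catalytically inactive zinc-finger antiviral protein that binds viral RNA, rose 1.77-fold in NS+LPS (0.82, SE 0.044) and 1.65-fold in HS+LPS (0.72, SE 0.044). Parp16, an enzyme of the endoplasmic reticulum that takes part in the unfolded protein response, rose by 0.36 in NS+LPS and by 0.65 in HS+LPS. Its second probe gave 0.08 in NS+LPS (adjusted p = 0.328) and 0.54 in HS+LPS (adjusted p = 2.87e-05), so the rise without added salt rests on 1 of 2 probes. Tnks2, a tankyrase that builds ADP-ribose chains, was not called by its brightest probe (-0.10 in NS+LPS and 0.04 in HS+LPS). Its other probe, well above background on all 12 arrays, rose by 1.14 in NS+LPS (SE 0.061, adjusted p = 6.31e-08) and by 1.19 in HS+LPS (SE 0.061, adjusted p = 4.03e-08), so the probes of Tnks2 disagree on LPS.

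With salt, 3 of these 6 rose and 1 fell in HS against NS, beside 18.2% of all genes higher and 18.8% lower. In HS+LPS against NS+LPS, 3 rose and 2 fell, beside 26.2% higher and 31.4% lower. Tnks2 was not called by its brightest probe in HS against NS (0.07), while its other probe rose there (0.37, SE 0.061, adjusted p = 0.00123). Parp6 had levels of 3.68, 3.42 and 3.52 on the HS+LPS arrays, against 2.99, 2.96 and 2.99 on the NS+LPS arrays. Without LPS its levels were 3.49, 3.48 and 3.52 on the HS arrays, against 2.98, 3.03 and 3.03 on the NS arrays. It was thus higher with salt whether or not LPS was present (log2 0.56 and 0.48, SE 0.059 each), and its LPS differences of -0.03 and 0.05 did not pass the test. Tiparp rose with salt in resting cells (0.14, adjusted p = 0.0394) and fell with salt under LPS (-0.33, adjusted p = 0.000219), with an interaction of -0.47 (SE 0.066, adjusted p = 0.000594), the opposite sign to those of Parp3 and Parp10. Its second probe did not call the rise in resting cells (0.04, adjusted p = 0.461). That probe did fall under LPS (-0.33) and gave an interaction of -0.37 (SE 0.060, adjusted p = 0.00131).

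Genes that work with these enzymes were counted from lists of named genes. Of 13 erasers, readers and partners of ADP-ribose, 4 rose and 4 fell in NS+LPS against NS (median 0.07), beside 28.6% of all genes higher and 35.1% lower. In HS+LPS against HS, 3 rose and 5 fell (median -0.06), beside 30.5% higher and 41.8% lower. Dtx3l, the partner of Parp9, rose 3.54-fold in NS+LPS (log2 1.82, SE 0.077) and 3.90-fold in HS+LPS (log2 1.96, SE 0.077). It fell by 0.25 in HS against NS (adjusted p = 0.0297) and differed by -0.11 in HS+LPS against NS+LPS (adjusted p = 0.256). Its 3 probes disagreed on these salt calls. The other probes were not called in HS against NS (adjusted p = 0.541 and 0.104), and 1 of them was called lower in HS+LPS against NS+LPS (-0.45, SE 0.14, adjusted p = 0.0195). Macrod1, a mitochondrial hydrolase that removes single ADP-ribose units, fell 4.65-fold in NS+LPS and 4.26-fold in HS+LPS, and rose with salt by 0.58 in HS against NS and by 0.71 in HS+LPS against NS+LPS.

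Hpf1, which directs Parp1 and Parp2 to serine residues, rose by 0.30 in NS+LPS against NS and by 0.54 in HS+LPS against HS, while Parp1 and Parp2 fell. Mvp, the major vault protein that forms the shell in which Parp4 sits, rose by 0.29 in NS+LPS and by 0.53 in HS+LPS. Like Parp4 it fell in HS against NS (-0.61, SE 0.081), and unlike Parp4 it also fell in HS+LPS against NS+LPS (-0.38, SE 0.081, adjusted p = 0.00268). Over the 13 genes, 3 rose and 3 fell with salt in resting cells, beside 18.2% of all genes higher and 18.8% lower. Under LPS, 4 rose and 4 fell with salt, beside 26.2% higher and 31.4% lower.

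Of 16 strand-break repair partners, 5 rose and 5 fell in NS+LPS against NS (median -0.04), beside 28.6% of all genes higher and 35.1% lower. In HS+LPS against HS, 5 rose and 8 fell (median -0.10), beside 30.5% higher and 41.8% lower. Aptx, which clears abortive ligation products from DNA ends, fell 2.15-fold in NS+LPS and 2.57-fold in HS+LPS. The scaffold gene Xrcc1, whose protein is recruited by ADP-ribose chains, fell by 0.49 in NS+LPS and by 0.65 in HS+LPS. In HS against NS 5 of the 16 rose and 2 fell, beside 18.2% of all genes higher and 18.8% lower. In HS+LPS against NS+LPS 2 rose and 6 fell, beside 26.2% higher and 31.4% lower. The interaction was negative for 5 and positive for none, beside 18.8% and 17.4% of all genes. The 5 include the ligase gene Lig3 (-0.45, SE 0.055) and the flap nuclease gene Fen1 (-0.51, SE 0.11).

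NAD+ is the substrate of all active PARPs. Of 13 genes of NAD+ supply and use, 7 rose and 5 fell with LPS in both comparisons. Of all genes, 28.6% rose and 35.1% fell in NS+LPS against NS, and 30.5% rose and 41.8% fell in HS+LPS against HS. Nampt, the rate-limiting enzyme of NAD+ salvage, rose 1.87-fold in NS+LPS against NS and 2.02-fold in HS+LPS against HS, and its salt differences of 0.10 with LPS and -0.01 without did not pass the test. Bst1, an enzyme that consumes NAD+ at the cell surface, rose 2.52-fold in NS+LPS and 2.56-fold in HS+LPS, and fell with salt by 1.02 under LPS and by 1.04 without it. In HS against NS none of the 13 rose and 2 fell, beside 18.2% of all genes higher and 18.8% lower. In HS+LPS against NS+LPS 3 rose and 4 fell, beside 26.2% higher and 31.4% lower.

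Genes of interferon signalling and control were counted in the same way. Of these 18 genes, 15 rose and 2 fell in NS+LPS against NS (median 2.44), beside 28.6% of all genes higher and 35.1% lower. In HS+LPS against HS, 14 rose and 3 fell (median 2.73), beside 30.5% higher and 41.8% lower. Ifnb1, which codes for interferon beta, was never well above background without LPS and was at least 23.9-fold higher in NS+LPS than in NS and at least 26.4-fold higher in HS+LPS than in HS. Mx1, an antiviral GTPase, rose 129-fold in NS+LPS and 106-fold in HS+LPS. Its levels on the HS arrays were dim and scattered (-4.28, -4.76 and -5.27), so the 106-fold value is uncertain. Irf9, the DNA-binding part of the factor that reads the response element, rose by 1.56 in NS+LPS and by 1.74 in HS+LPS.

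With salt, 12 of the 18 fell and 1, Ifnb1, was called higher in HS against NS, where it was not well above background in either group. Of all genes, 18.8% fell and 18.2% rose there. In HS+LPS against NS+LPS, 11 fell, 3 rose and 4 were not called, beside 31.4% of all genes lower and 26.2% higher. The 3 that rose were Ifnb1 (0.46, SE 0.097, adjusted p = 0.00266), Irf7 and Tyk2. Mx1 fell by 1.56 with salt under LPS and by 1.27 (SE 0.2) without LPS, where its HS arrays were dim. Irf9 fell with salt by 0.27 under LPS and by 0.45 without it. The receptor gene Ifnar1 fell by 0.46 (SE 0.052) with salt under LPS and by 0.73 (SE 0.052) without. The interaction was negative for 7 of the 18 and positive for 4, beside 18.8% and 17.4% of all genes. Rsad2, an antiviral enzyme, had the value -1.13 (SE 0.050), and Ifit1, which binds viral RNA, had -0.79 (SE 0.055). Irf7, the factor that amplifies the response, had 0.71 (SE 0.14, adjusted p = 0.00353), from a salt difference of 0.35 with LPS and -0.36 without. Whether the interferon genes and the PARP members moved through a shared cause was not tested.

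Parp14, Dtx3l and Parp9 are neighbours on mouse chromosome 16, where the span from the Parp14 probe to the Parp9 probe measures 140 kb (mm9). Of the 7 measured genes in that span and 100 kb to each side, these 3 were the only ones that rose more than 2-fold in NS+LPS against NS. Gm10237, which lies between Parp14 and Dtx3l, differed by -0.04 (adjusted p = 0.704). Beyond Parp9, the importin gene Kpna1 rose by 0.26, Fam162a rose by 0.39 and Wdr5b fell by 0.40. In HS+LPS against HS, Fam162a also rose more than 2-fold (log2 1.23), beside 3.23 for Parp14, 1.96 for Dtx3l and 2.22 for Parp9. There Kpna1 rose by 0.21, while Wdr5b fell by 0.76 and Gm10237 by 0.45. With salt in resting cells, Parp14, Dtx3l by its brightest probe, Parp9 and Wdr5b fell and the other 3 did not pass the test. With salt under LPS, Parp14, Parp9, Wdr5b (-0.66) and Gm10237 (-0.38) fell and Fam162a rose (0.73). Kpna1 and the brightest Dtx3l probe did not pass there.

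Among all other genes tested, those whose levels ran most like Parp14 over the 12 arrays were Gm5595 (Pearson r = 0.9989), Gm16340 (0.9988) and Samd9l (0.9984). For Parp9 they were Reep3 (0.9988), Gm16340 (0.9983) and Ppap2a (0.9982), and for Parp11 they were Ifit2 (0.9972), Gramd1b (0.9971) and Oasl1 (0.997). These values are descriptive, since the 12 arrays fall into LPS and non-LPS clusters, and 174, 180 and 139 genes reached 0.99 with Parp14, Parp9 and Parp11.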

How the data were processed

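RNA of 12 RAW264.7 samples was hybridised to 1-colour Agilent arrays (design 028005). The scanner files hold linear intensity per the file headers, background subtracted and detrended by Feature Extraction 10.7.3.1, with other spot flags of 0 or 1. The deposited value table is linear intensity too, with a median of 28.8 on every array, and how it was normalized is not given in the sources used here. Probe coordinates are on mm9 per the file headers.

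From the scanner files, log2 of the processed signal minus the log2 of the array's 75th percentile over 59305 non-control spots was computed, and spots flagged as outliers were left out. The filter asked for a signal well above background on each of the 3 arrays of some group. A gene with several probes (3984 of 13860) was represented by its brightest. All 12 arrays were fitted with limma 3.58.1 under R 4.3.3, which left 8 residual degrees of freedom. Moderated tests were 2-sided, p-values were adjusted over all genes by Benjamini-Hochberg, and a call is an adjusted p under 0.05. The median SE was 0.066 for a pair of groups and 0.0933 for the interaction, with the precision limited by the number of arrays. The method was tested on simulated data. An at-least fold sets the bright group's mean against the lowest signal well above background. Slide blocks used statmod 1.5.0, input was read with data.table (1.17.8), and figures were drawn with matplotlib 3.10.9, numpy 2.4.6 and pandas 2.3.3 in Python 3.11.15.

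All members are named, and other genes only from the lists of family genes, ADP-ribose partners, repair, NAD+ and interferon genes, plus the 3 genes most alike and the neighbours of Parp9 and Parp14. The members and lists were chosen with earlier results of these data known. Hpf1, Naprt and the macrophage marker Adgre1 were found under older symbols. The 24 other settings were normexp correction with offset 50, quantile normalization, the deposited values, no filter, genes bright on all 12 arrays, averaged probes, a variance trend with intensity, fits of only the groups compared, replicate and slide blocks, the shared slide alone and leaving out each array. The fit by probe was added after seeing the data.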

Additional observations from a re-analysis of the deposited data

Results flagged for a closer look

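For 2 of 9 members the effect of added salt with LPS differed from that without LPS by a test of the difference itself. That test called 36.2% of all genes. Parp3 differed by 0.46 with LPS and by -0.08 without, so the effect with LPS minus that without was 0.54 on the log2 scale (SE 0.11, limma interaction, adjusted p = 0.00471). Parp10 differed by 0.16 with LPS and by -0.21 without, which gave 0.38 (SE 0.068, adjusted p = 0.00218). Both values draw on the HS+LPS arrays, which cannot be told apart from their slide and scan day, and the second Parp10 probe gave 0.07 (adjusted p = 0.863). No check for an array far from its group was made, since groups of 3 arrays are too small for it.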

How the results depend on the processing

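No called member changed sign under any setting run. Of 1017 member values recomputed under the 24 settings, 972 stayed on the same side of the threshold, 38 lost a call, 6 gained one, and 1 uncalled value, the Parp9 interaction without HS replicate 1 (-0.01), changed sign. The count of members called in HS against NS was the least stable. It was 5, and 3 with no filter on dim probes, 3 with slide as a fixed block and 3 with only arrays of the shared slide. These slide settings are the same fit, since the second slide held 1 of the arrays used. The calls over all genes moved too. They were 5130 of 13860 in the main fit, 4314 of 24180 without the filter and 4857 of 13860 with either slide setting. The member count was 4 with averaged probes, with the intensity trend and with only the groups compared, 6 with quantile normalization and in the deposited values, and 5 with the 3 settings left. Over all genes, averaged probes called 4992, the intensity trend 5439 and only the groups compared 4558. Quantile normalization called 5417 and the deposited values 5419. The settings left called 5329 (normexp), 5118 (slide as a random block) and 5116 of 12168 (bright on all 12 arrays). Leaving out 1 array gave 3 to 5, with 3 without NS replicate 1, NS replicate 3 or HS replicate 1. The calls over all genes then ran from 3879 to 5114 of 13860, and were 4776, 4460 and 4618 without these 3 arrays. The counts with 1 array left out were 6 to 8 for HS+LPS against NS+LPS (8 with all arrays), 8 to 9 for NS+LPS against NS (9), 9 throughout for HS+LPS against HS, and 2 throughout for the interaction. Over all 13860 genes, the same fits called 7102 to 8046, 8177 to 8844, 9516 to 10050 and 4168 to 4792, in that order. Deviations of same-numbered arrays from their group means correlated between -0.201 and 0.124 (18 pairs), and 5 of 12 arrays correlated best with their own number, so the numbers were not taken as pairs. With the replicate block the counts were 4 for HS against NS, 8 for HS+LPS against NS+LPS, 9 for both LPS comparisons and 2 for the interaction. That block called 4705 of all genes in HS against NS, 7620 in HS+LPS against NS+LPS and 4612 for the interaction. In the LPS comparisons it called 8642 (NS+LPS against NS) and 9845 (HS+LPS against HS). The Parp12 interaction was called with normexp correction (-0.23, adjusted p = 0.0367) and the Parp4 interaction with the mean of its probes (0.17, adjusted p = 0.0423). Over all genes, 48% of interaction calls were higher, against 58.1% with quantile normalization and 58.2% in the deposited values. Why these values moved was not tested. A slide block could not be fitted for HS+LPS, except as a random block, which kept the counts. Signal limits Parp8, which was never well above background, and the dim second probes of Parp9 and Parp10.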
